A study of Arabidopsis thaliana with 24 samples.

Results

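The genes described here are 50 nuclear genes of the photosynthetic light reactions in Arabidopsis: the antenna proteins of both photosystems, subunits of the photosystems themselves, the electron carriers that connect them, and parts of the chloroplast ATP synthase. They were taken by locus from a fixed list and found on the arrays through the accession of each probe, by a rule that uses no measured value. The list itself was chosen with earlier results of these data known. All 50 had a probe that passed the filter on dim signals, among 27813 genes tested. They fall into 5 groups by role, namely 14 genes of the LHCB antenna of photosystem II, 6 of the LHCA antenna of photosystem I, 10 photosystem II subunits, 12 photosystem I subunits, and 8 carriers and ATP synthase subunits.

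In the thylakoid membrane of the chloroplast, antenna proteins hold chlorophyll and pass the energy of absorbed light to photosystem II, which takes electrons from water, and to photosystem I, which reduces ferredoxin. Electrons move between them through the cytochrome b6f complex and plastocyanin, and the proton gradient built on the way drives ATP synthase. The core proteins are encoded in the plastid, while the genes described here lie in the nucleus. They are turned on by light in leaves and are held at lower levels in roots, whose plastids are mostly not green.

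RNA came from roots of Col-0 plants of 4 lines, called control, ISH1, ISH2 and ISH1&2, each grown with and without 5 µM estradiol, with 3 arrays in each of the 8 groups. Plants were transferred after 8 days on plates with hygromycin and were 15 days old at harvest, all under constant light. The inducible lines carry the estradiol-inducible XVE system, in which a constitutive 35S promoter drives a hybrid activator that, with estradiol bound, turns on a transgene behind a LexA operator, so that induction was not limited to a cell type. The labels do not state which transgene each of ISH1 and ISH2 names, which construct the control plants carry, or whether a line is 1 clone, and they do not state that replicates were separate plants, so the p-values measure the spread between these samples. The question was how root expression of these genes changed with estradiol in the control and in the inducible lines.

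Levels below are the log2 of a probe's processed signal minus the 75th percentile of its array, so that 0 is the signal of a fairly bright probe and a difference of 1 is a 2-fold change. A difference was called where limma, fitted to all 24 arrays, gave a p below 0.05 after Benjamini-Hochberg adjustment over all genes tested, and differences are given as log2 ± SE with that adjusted p. The level of a probe is not comparable with that of another probe, and in whole roots, fewer cells of a type and less RNA per cell cannot be told apart. Several members belong to families of close copies (LHCB1.1 to LHCB1.5, LHCB2.1 to LHCB2.3, and the pairs PSBO1 and PSBO2, PSBQ1 and PSBQ2, PSAD1 and PSAD2, PSAE1 and PSAE2, PSAH1 and PSAH2), whose probes may also bind each other's RNA, so the split within a family is uncertain.

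Levels of the study's transgenes, ATHB25 and REM7, differed between the lines, and REM7 rose with estradiol in ISH1 as well as ISH2 roots. ATHB25, a zinc-finger homeodomain factor, lay at -4.19, -4.60 and -4.58 without and at 5.31, 5.16 and 5.23 with estradiol in ISH1 roots, and at -1.18, -0.14 and -0.61 without and 4.14, 4.23 and 4.36 with it in ISH1&2 roots. REM7, a B3-domain factor, lay at 0.18, 0.06 and -0.16 without and at 6.37, 6.02 and 6.02 with estradiol in ISH2 roots, at 2.59, 0.80 and -0.19 in induced ISH1 roots, and at 4.52, 4.53 and 4.64 without and 4.70, 4.71 and 4.58 with it in ISH1&2 roots. In control roots ATHB25 lay at -9.05, -8.87 and -8.78 without and -7.32, -7.79 and -8.92 with estradiol and REM7 at -1.72, -1.72 and -1.47 without and -1.14, -1.64 and -1.62 with it. ATHB25 in ISH2 roots was -6.57, -7.13 and -7.94 without and -8.03, -8.45 and -8.85 with estradiol, and REM7 in uninduced ISH1 roots -1.66, -1.6 and -1.56. ISH1&2 roots without estradiol thus already held REM7 near its level in that line with estradiol, and ATHB25 at least 219-fold above the control roots. With estradiol, ATHB25 alone was called higher in ISH1&2 roots. Both genes were called higher in ISH1 roots, where the induced arrays differed in REM7 among themselves. Each of the 6 slides held all 4 lines of 1 treatment and 1 replicate number, so a response to estradiol was measured between slides and a difference between lines within them. Each line always had the same place on a slide, so within a treatment line and place cannot be told apart. The ISH1 array without estradiol of replicate 1 stood apart, with 90.9% of probes well above background against 76.9% to 84.8% elsewhere and 1405 genes over 4-fold above the mean of the other 2 arrays, and the ISH1&2 array with estradiol of replicate 1 correlated with the other 2 of its group at 0.986 against at least 0.994 for all arrays but these 2. The labels of 2 arrays of control roots, the uninduced one of replicate 2 and the induced one of replicate 3, contain a description that contradicts their title and genotype.

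Most of the 50 genes moved in opposite directions in ISH2 and ISH1&2 roots. With estradiol, all 50 fell in ISH2 roots and 48 rose in ISH1&2 roots, while 27 fell by smaller amounts and 1 rose in ISH1 roots and none was called in control roots. The median response of the members was 0.05 in control, -0.37 in ISH1, -1.86 in ISH2 and 1.68 in ISH1&2 roots, where that of all genes tested was 0.00, -0.08, 0.04 and -0.01. Of all genes tested, 7.14% were called higher and 7.86% lower in control roots, 26.3% and 36.4% in ISH1 roots, 27.3% and 21.9% in ISH2 roots, and 31.6% and 33% in ISH1&2 roots. Of the members, 27 of 50 were thus lower in ISH1 roots, beside a background that was itself large. Changes of at least 2-fold were reached by 3 members in ISH1 roots, all lower (4.82% of all genes), or 1 with normexp background correction, by 47 in ISH2 roots, all lower (4.02%), and upward by 44 in ISH1&2 roots (12%). At an unadjusted p below 0.05, limma gave 1 member higher and 5 lower in control roots. Leaving out the ISH1 array that stood apart gave 26 lower and 1 higher in ISH1 roots, and leaving out the ISH1&2 array that stood apart left 48 higher in ISH1&2 roots.

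**Figure D1:**
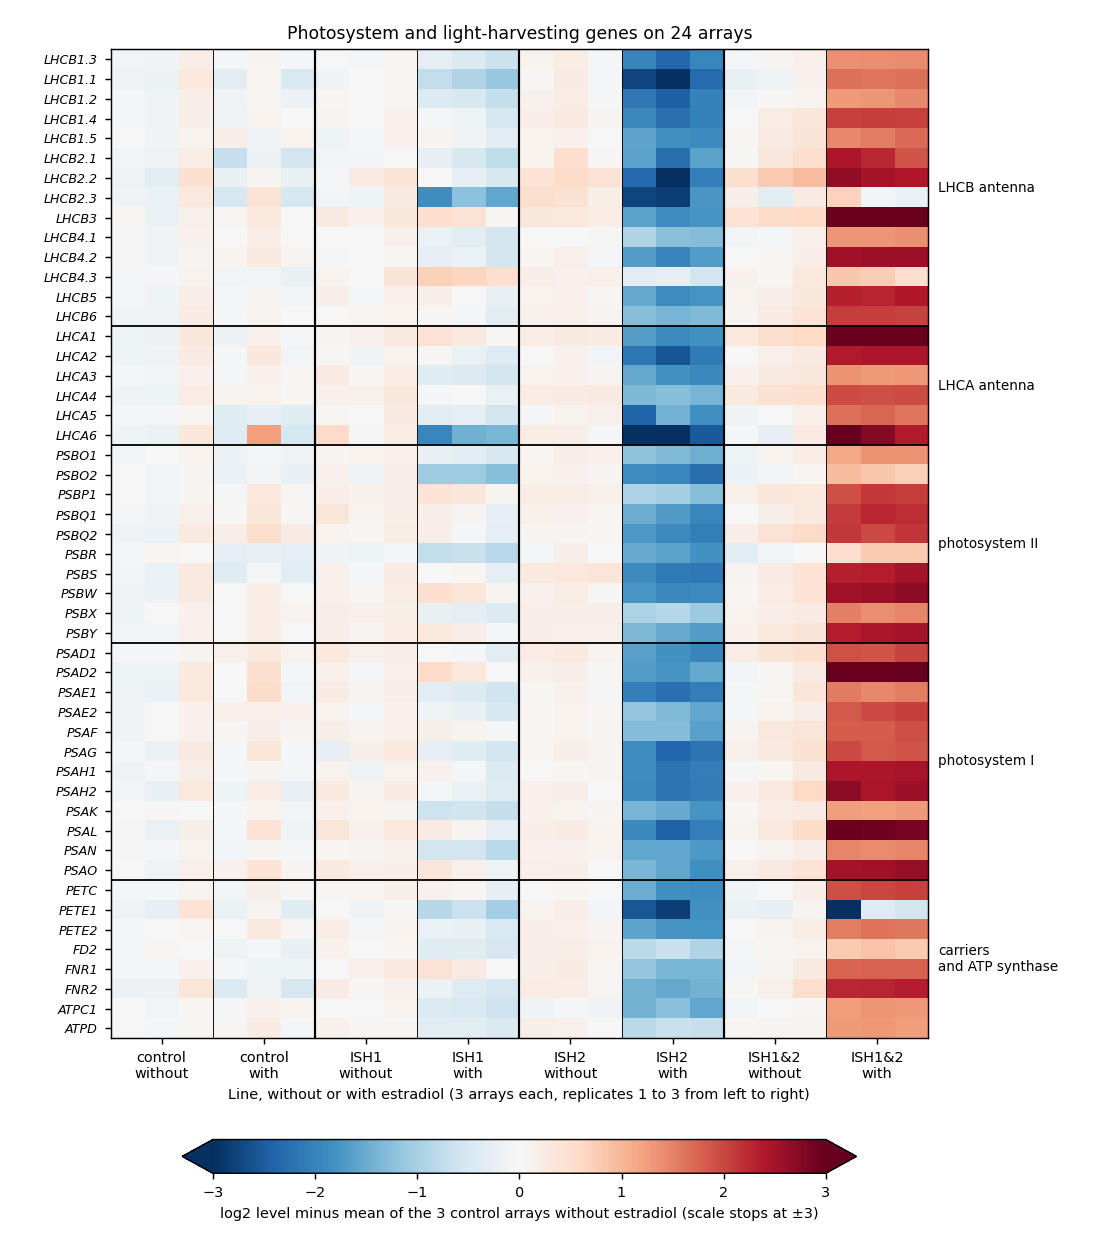
Level of each of the 50 genes (rows, grouped by role) on each of the 24 arrays (columns, by line and treatment), as log2 difference from the gene's mean over the control arrays without estradiol. The ISH2 columns with estradiol are low and the ISH1&2 columns with estradiol high for nearly every gene, with LHCB2.3 and PETE1 as the exceptions in ISH1&2 roots.

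Set against all other arrays, the 3 ISH2 arrays with estradiol were the lowest of the 24 for 48 of the 50 members, against 4.88% of all genes. The 3 ISH1&2 arrays with estradiol were the highest of the 24 for 47 members, against 13.9% of all genes. The exceptions were LHCB2.3 and PETE1 on both counts and LHCB4.3 on the second. Over ISH1, ISH2 and ISH1&2 roots in turn, 26 members were called lower, lower and higher, and 21 were not called, lower and higher. LHCB2.3, LHCB4.3 and PETE1 each had a pattern of their own. Summed over the members on a linear scale, in multiples of the array's 75th percentile, the signal was 153, 154 and 178 in control roots without estradiol and 153, 172 and 154 with it. In ISH1 roots the sum was 169, 164 and 176 without and 145, 137 and 118 with estradiol, and in ISH2 roots 174, 183 and 169 without and 57.4, 52.7 and 50.5 with it. In ISH1&2 roots it was 160, 179 and 192 without and 509, 524 and 540 with estradiol. The sums with and without estradiol overlapped in control roots and did not in any of the other 3 lines. Such a sum is weighted toward the brightest probes, such as those of PSBR, PSBO1 and LHCB1.3, and does not describe all members evenly.

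Without estradiol the lines lay close together. The median difference of the members from control roots was 0.10 in ISH1, 0.12 in ISH2 and 0.16 in ISH1&2 roots. No member was called in ISH1 roots (0.64% of all genes higher and 0.126% lower) or ISH2 roots (0.313% and 0.338%), where limma gave 4 and 7 members higher at an unadjusted p below 0.05 and none lower. In ISH1&2 roots 5 members were higher and none lower (4.17% and 5.45% of all genes). These were LHCB2.2 at 0.73 ± 0.22 (adjusted p = 0.0462), LHCB3 at 0.51 ± 0.11 (adjusted p = 0.0108), LHCA1 at 0.48 ± 0.13 (adjusted p = 0.0284), LHCA4 at 0.42 ± 0.08 (adjusted p = 0.00568) and PSAD1 at 0.37 ± 0.10 (adjusted p = 0.0249), all under 2-fold. That count rested on single arrays: it was 2 without the control array of replicate 1, 1 without that of replicate 2, 9 without that of replicate 3, and 2 without the ISH1&2 array of replicate 2 or of replicate 3. It was 1 without both control arrays of contradictory description and 6 with the slide as a block. Leaving out the control array of replicate 3 also gave 1 member higher in each of ISH1 and ISH2 roots.

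The LHCB genes encode the antenna of photosystem II: LHCB1, LHCB2 and LHCB3 form the trimers of LHCII, and LHCB4, LHCB5 and LHCB6 are the monomeric linkers CP29, CP26 and CP24. Of the 14 genes, 14 fell in ISH2 roots (median -2.04, from -2.95 for LHCB2.2 to -0.53 for LHCB4.3) and 13 rose in ISH1&2 roots (median 1.76). In ISH1 roots 7 fell and 1 rose (median -0.39), beside 36.4% and 26.3% of all genes. LHCB3 (AT5G54270), a protein of LHCII trimers, had the largest rise of the group. Its levels were 0.42, 0.18 and 0.54 without and 0.44, 0.70 and 0.39 with estradiol in control roots, and 0.66, 0.51 and 0.71 without and 0.89, 0.82 and 0.42 with it in ISH1 roots. They were 0.73, 0.70 and 0.61 without and -1.23, -1.48 and -1.4 with estradiol in ISH2 roots, and 0.79, 0.93 and 0.97 without and 3.57, 3.60 and 3.61 with it in ISH1&2 roots. All 3 induced ISH2 arrays lay below and all 3 induced ISH1&2 arrays above every other array, and the induced and uninduced arrays of the control and ISH1 lines overlapped. The response was -2.05 ± 0.11 (adjusted p = 1.22e-10) in ISH2 roots and 2.70 ± 0.11 (adjusted p = 7.66e-13), or 6.49-fold, in ISH1&2 roots, against 0.12 ± 0.11 (adjusted p = 0.526) in control and 0.08 ± 0.11 (adjusted p = 0.548) in ISH1 roots.

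LHCB1.3 (AT1G29930), one of 5 LHCB1 genes and the brightest probe of the group, fell in ISH1 as well as ISH2 roots. It lay at 3.63, 3.61 and 3.92 without and 3.66, 3.81 and 3.65 with estradiol in control roots and at 3.73, 3.67 and 3.77 without and 3.46, 3.29 and 3.07 with it in ISH1 roots. In ISH2 roots it lay at 3.83, 3.94 and 3.69 without and 1.72, 1.37 and 1.76 with estradiol, and in ISH1&2 roots at 3.69, 3.81 and 3.87 without and 5.09, 5.12 and 5.14 with it. The ISH1 groups did not overlap, although the shift was small beside those of the other inducible lines: -0.45 ± 0.11 (adjusted p = 0.00157) in ISH1, -2.2 ± 0.11 (adjusted p = 2.66e-11) in ISH2 and 1.33 ± 0.11 (adjusted p = 4.33e-09) in ISH1&2 roots. Among its close copies, LHCB1.1, LHCB1.2 and LHCB1.4 were also lower in ISH1 roots, by differences of -0.91, -0.56 and -0.31, while LHCB1.5 was at -0.09 ± 0.12 (adjusted p = 0.522). The linkers divided in the same way, with LHCB4.1 at -0.42 and LHCB4.2 at -0.35 called in ISH1 roots, and LHCB5 at -0.11 ± 0.10 (adjusted p = 0.372) and LHCB6 at -0.19 ± 0.10 (adjusted p = 0.121) not called.

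LHCB2.3 (AT3G27690) was the 1 member with no call in ISH1&2 roots. It encodes an LHCII protein of the LHCB2 type, which is phosphorylated when LHCII moves between the photosystems. Levels were -3.44, -3.53 and -3.02 without and -3.84, -2.89 and -3.86 with estradiol in control roots and -3.41, -3.45 and -3.06 without and -5.19, -4.56 and -4.90 with it in ISH1 roots. They were -2.80, -2.88 and -3.16 without and -6.09, -6.15 and -5.08 with estradiol in ISH2 roots and -3.15, -3.64 and -3.09 without and -2.63, -3.42 and -3.53 with it in ISH1&2 roots. It fell clear of the uninduced arrays in both ISH1 and ISH2 roots and overlapped with them in ISH1&2 roots. The response was -1.58 ± 0.31 (adjusted p = 0.000245) in ISH1, -2.82 ± 0.31 (adjusted p = 6.3e-07) in ISH2 and 0.09 ± 0.31 (adjusted p = 0.807) in ISH1&2 roots, the last with a 95% interval of -0.56 to 0.75. The other 2 LHCB2 genes rose in ISH1&2 roots, LHCB2.1 by a difference of 1.88 ± 0.20 (adjusted p = 1.58e-07) and LHCB2.2 by 1.79 ± 0.22 (adjusted p = 1.06e-06). With normexp background correction, the difference of LHCB2.3 in ISH1 roots was -0.86 (adjusted p = 0.0904) and that of LHCB2.1 in ISH2 roots -1.06 (adjusted p = 0.118), neither called.

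LHCB4.3 (AT2G40100), a form of CP29, was the 1 member that rose in ISH1 roots. Its levels were -1.07, -1.05 and -0.89 without and -1.09, -1.08 and -1.23 with estradiol in control roots and -0.89, -1.02 and -0.62 without and -0.28, -0.36 and -0.51 with it in ISH1 roots. In ISH2 roots they were -0.81, -0.87 and -0.85 without and -1.31, -1.28 and -1.55 with estradiol, and in ISH1&2 roots -0.88, -0.95 and -0.68 without and -0.20, -0.27 and -0.49 with it. Induced ISH1 and ISH1&2 arrays had overlapping ranges, above all uninduced arrays of their own lines. The response was 0.45 ± 0.10 (adjusted p = 0.00107) in ISH1, 0.52 ± 0.10 (adjusted p = 0.000293) in ISH1&2 and -0.53 ± 0.10 (adjusted p = 0.000396) in ISH2 roots, the smallest shift of any member there. The difference between the ISH1&2 and ISH1 responses was 0.06 ± 0.15 (adjusted p = 0.764), with an interval of -0.25 to 0.38.

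**Figure D2:**
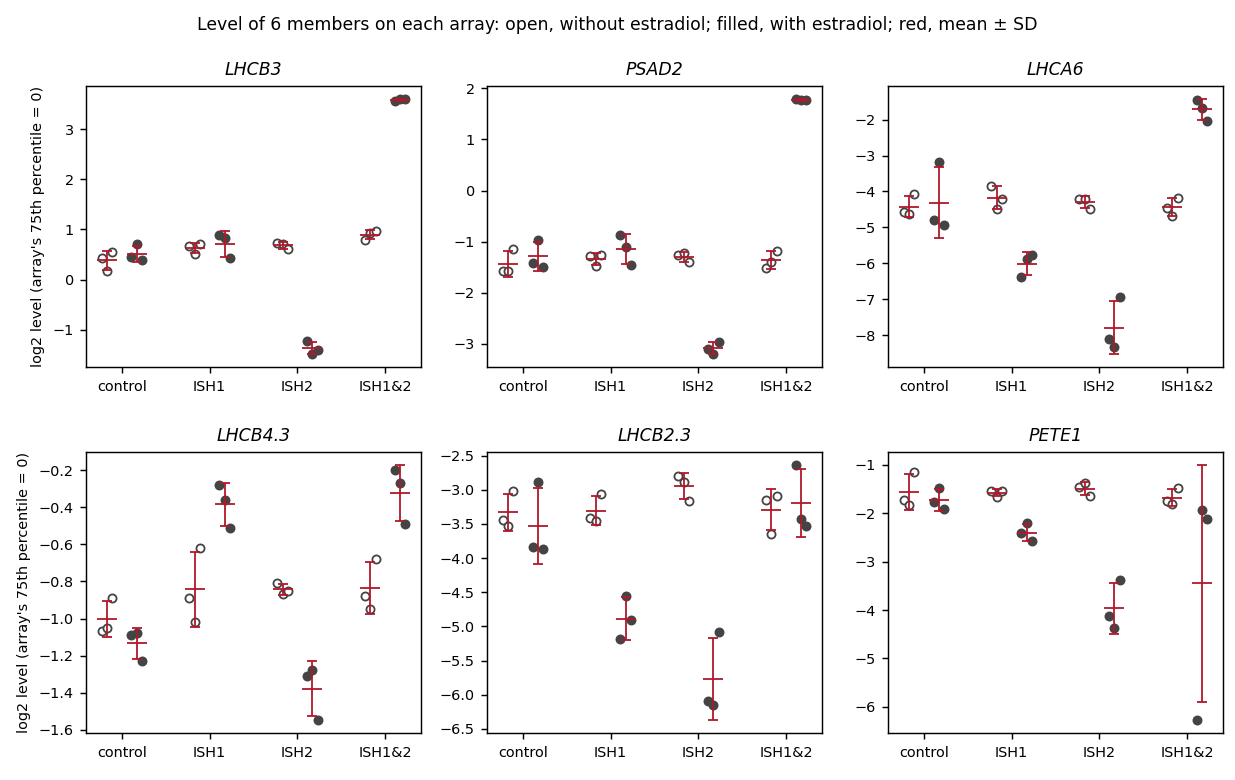
Level (log2 of signal over the array's 75th percentile) of 6 of the genes on each array, in the 4 lines without and with estradiol, where each point is an array (open without, filled with estradiol) and the red bars are the group mean ± SD. LHCB3, PSAD2 and LHCA6 are low in induced ISH2 and high in induced ISH1&2 roots, LHCB4.3 covers overlapping ranges in induced ISH1 and induced ISH1&2 roots, and LHCB2.3 and PETE1 are not raised in ISH1&2 roots.

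The LHCA genes encode the antenna of photosystem I, with LHCA1 to LHCA4 as the belt on 1 side of its core and LHCA5 and LHCA6 as the minor forms that link it to the chloroplast NDH complex. All 6 fell in ISH2 roots (median -2.0) and rose in ISH1&2 roots (median 1.95), and 4 fell in ISH1 roots (36.4% of all genes). LHCA1 (AT3G54890) rose most, with levels of 1.15, 1.12 and 1.65 without and 1.13, 1.47 and 1.24 with estradiol in control roots and of 1.39, 1.43 and 1.59 without and 1.74, 1.6 and 1.34 with it in ISH1 roots. ISH2 roots had it at 1.52, 1.58 and 1.55 without and -0.35, -0.61 and -0.50 with estradiol, and ISH1&2 roots at 1.62, 1.84 and 1.91 without and 4.5, 4.53 and 4.67 with it. Control and ISH1 groups overlapped, and the induced arrays of the lines ISH2 and ISH1&2 lay outside all others. Its response was -2.04 ± 0.13 (adjusted p = 7.18e-10) in ISH2 and 2.78 ± 0.13 (adjusted p = 2.84e-12), or 6.86-fold, in ISH1&2 roots, against 0.09 ± 0.13 (adjusted p = 0.577) in ISH1 roots.

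LHCA3 (AT1G61520) rose least in ISH1&2 roots and was among the members that fell in ISH1 roots. Levels in control roots were 1.51, 1.47 and 1.68 without and 1.52, 1.68 and 1.62 with estradiol, and in ISH1 roots 1.80, 1.58 and 1.78 without and 1.19, 1.15 and 1.01 with it. Levels in ISH2 roots were 1.66, 1.69 and 1.63 without and 0.02, -0.26 and -0.39 with estradiol, and in ISH1&2 roots 1.68, 1.82 and 1.90 without and 2.91, 2.84 and 2.86 with it. The induced arrays of each of ISH1, ISH2 and ISH1&2 lay apart from the uninduced ones, at -0.60 ± 0.09 (adjusted p = 1.26e-05), -1.87 ± 0.09 (adjusted p = 1.85e-11) and 1.07 ± 0.09 (adjusted p = 5.78e-09). LHCA4 (AT3G47470), which pairs with LHCA1 and was the brightest probe of the group, lay at 1.90, 1.86 and 2.23 without and 2.1, 2.1 and 2.06 with estradiol in control roots and at 2.14, 2.15 and 2.33 without and 1.96, 2.01 and 1.80 with it in ISH1 roots. Its levels were 2.22, 2.25 and 2.27 without and 0.66, 0.71 and 0.60 with estradiol in ISH2 roots and 2.28, 2.46 and 2.50 without and 3.95, 3.92 and 3.95 with it in ISH1&2 roots. These gave -0.29 ± 0.08 (adjusted p = 0.00591) in ISH1, -1.59 ± 0.08 (adjusted p = 4.67e-11) in ISH2 and 1.52 ± 0.08 (adjusted p = 1.66e-11) in ISH1&2 roots, so its fall and rise were of like size.

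LHCA6 (AT1G19150), named after its values were seen, had the largest fall of the 50 genes in both ISH1 and ISH2 roots. LHCA6 lay at -4.56, -4.62 and -4.08 without and -4.80, -3.18 and -4.94 with estradiol in control roots and at -3.85, -4.49 and -4.20 without and -6.37, -5.87 and -5.78 with it in ISH1 roots. In ISH2 roots it lay at -4.20, -4.21 and -4.49 without and -8.10, -8.33 and -6.93 with estradiol, the latter well above background on only 2 of 3 arrays, and in ISH1&2 roots at -4.47, -4.67 and -4.18 without and -1.44, -1.67 and -2.04 with it. Groups did not overlap in any line but the control. The responses were -1.83 ± 0.39 (adjusted p = 0.000529) in ISH1, -3.48 ± 0.39 (adjusted p = 8.04e-07) in ISH2 and 2.73 ± 0.39 (adjusted p = 6.58e-06) in ISH1&2 roots, and with normexp background correction the difference in ISH1 roots was -0.63 (adjusted p = 0.298). LHCA5, its partner in linking photosystem I to NDH, changed by -0.49 ± 0.15 (adjusted p = 0.0102) in ISH1, -1.96 ± 0.15 (adjusted p = 9.16e-09) in ISH2 and 1.64 ± 0.15 (adjusted p = 3.11e-08) in ISH1&2 roots.

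Photosystem II was represented by 10 genes: PSBO1, PSBO2, PSBP1, PSBQ1 and PSBQ2 for the lumenal proteins that shield the water-splitting cluster, PSBR, which helps to hold them, PSBS, which switches on the harmless loss of excess energy as heat, and PSBW, PSBX and PSBY for small membrane subunits. All 10 fell in ISH2 roots (median -1.76, from -2.38 for PSBS to -1.15 for PSBX) and all 10 rose in ISH1&2 roots (median 1.73). In ISH1 roots 4 fell, near the share of all genes called lower there (36.4%). PSBW (AT2G30570), which stabilizes the assembly of photosystem II with its antenna, rose most. Its levels were 1.90, 1.83 and 2.26 without and 1.98, 2.23 and 2.02 with estradiol in control roots and 2.16, 2.06 and 2.21 without and 2.50, 2.37 and 2.07 with it in ISH1 roots. They were 2.12, 2.21 and 2.04 without and 0.25, 0.06 and 0.08 with estradiol in ISH2 roots and 2.06, 2.23 and 2.41 without and 4.51, 4.59 and 4.68 with it in ISH1&2 roots. Induced and uninduced arrays overlapped in control and ISH1 roots only. The response was 0.17 ± 0.12 (adjusted p = 0.221) in ISH1, -1.99 ± 0.12 (adjusted p = 3e-10) in ISH2 and 2.36 ± 0.12 (adjusted p = 7.17e-12) in ISH1&2 roots.

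PSBR (AT1G79040) was both the brightest probe of the group and the smallest rise. It lay at 4.11, 4.23 and 4.18 without and 3.87, 3.95 and 3.91 with estradiol in control roots and at 4.06, 4.02 and 4.14 without and 3.44, 3.51 and 3.35 with it in ISH1 roots. In ISH2 roots it lay at 4.11, 4.35 and 4.17 without and 2.65, 2.57 and 2.36 with estradiol, and in ISH1&2 roots at 3.83, 4.08 and 4.16 without and 4.68, 4.96 and 4.95 with it. The groups did not overlap in any of the 4 lines, and the control shift was -0.26 ± 0.09 (adjusted p = 0.0694), against -0.64 ± 0.09 (adjusted p = 9.79e-06) in ISH1, -1.68 ± 0.09 (adjusted p = 1.08e-10) in ISH2 and 0.84 ± 0.09 (adjusted p = 2.83e-07) in ISH1&2 roots. The 2 copies of the PSBO protein, named after their values were seen, both fell in ISH1 roots. PSBO1 changed by -0.45 ± 0.09 (adjusted p = 0.000269) and PSBO2 by -1.21 ± 0.10 (adjusted p = 5.5e-09), and the difference between the copies was not tested. PSBO2 lay at 1.43, 1.2 and 1.5 without and 0.24, 0.24 and 0.01 with estradiol. PSBO2, LHCB2.3 and LHCA6 were the 3 members that fell at least 2-fold in ISH1 roots, and with normexp background correction only PSBO2 did, with LHCB2.3 at -0.86 (adjusted p = 0.0904). In ISH1&2 roots PSBO2 rose by 0.89 ± 0.10 (adjusted p = 2.77e-07) and PSBO1 by 1.23 ± 0.09 (adjusted p = 9.09e-10). PSBP1 and PSBY were not called in ISH1 roots, at 0.11 ± 0.10 (adjusted p = 0.35) and -0.02 ± 0.10 (adjusted p = 0.907), and rose in ISH1&2 roots by 1.77 and 2.16. PSBS had the largest fall of the group in ISH2 roots and rose in ISH1&2 roots by 2.15 ± 0.13 (adjusted p = 5.1e-11).

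Photosystem I was represented by 12 genes. PSAD1, PSAD2, PSAE1 and PSAE2 encode the stromal side where ferredoxin docks, PSAF the lumenal docking site of plastocyanin together with PSAN, PSAG and PSAK membrane subunits at the edge of the core, and PSAH1, PSAH2, PSAL and PSAO the side on which LHCII binds. All 12 fell in ISH2 roots (median -1.90, from -2.33 for PSAL to -1.43 for PSAE2) and all 12 rose in ISH1&2 roots (median 1.74), each by at least 2-fold in both lines. In ISH1 roots 7 fell (36.4% of all genes), none of them 2-fold.

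PSAD2 (AT1G03130) had the largest rise of all 50 genes. Its levels were -1.58, -1.58 and -1.14 without and -1.41, -0.96 and -1.49 with estradiol in control roots and -1.28, -1.48 and -1.27 without and -0.87, -1.11 and -1.45 with it in ISH1 roots. In ISH2 roots they were -1.27, -1.23 and -1.4 without and -3.10, -3.20 and -2.96 with estradiol, and in ISH1&2 roots -1.52, -1.39 and -1.18 without and 1.80, 1.77 and 1.77 with it. Every array of the control and ISH1 lines lay between the induced ISH2 and the induced ISH1&2 arrays. The response was 3.15 ± 0.15 (adjusted p = 3.75e-12), or 8.87-fold, in ISH1&2 roots and -1.79 ± 0.15 (adjusted p = 2.5e-08), or 3.45-fold lower, in ISH2 roots, against 0.20 ± 0.15 (adjusted p = 0.267) in ISH1 roots. PSAD1, its close copy, rose by 1.57 ± 0.10 (adjusted p = 9.78e-11) in ISH1&2 roots.

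PSAK (AT1G30380) had the smallest rise of the group. It lay at 1.99, 2.02 and 1.97 without and 1.94, 2.09 and 1.92 with estradiol in control roots and at 2.15, 2.09 and 2.08 without and 1.37, 1.39 and 1.28 with it in ISH1 roots. Levels were 2.12, 2.11 and 2.07 without and 0.59, 0.48 and 0.23 with estradiol in ISH2 roots and 2.03, 2.22 and 2.24 without and 3.24, 3.22 and 3.27 with it in ISH1&2 roots. In ISH1 roots it fell clear of the uninduced arrays, by a difference of -0.76 ± 0.07 (adjusted p = 4.71e-08), the largest of the group in that line, against -1.67 ± 0.07 (adjusted p = 5.99e-12) in ISH2 and 1.08 ± 0.07 (adjusted p = 2.82e-10) in ISH1&2 roots. PSAF (AT1G31330), the brightest probe of the group, lay at 2.37, 2.46 and 2.60 without and 2.53, 2.65 and 2.55 with estradiol in control roots and at 2.65, 2.55 and 2.64 without and 2.65, 2.57 and 2.42 with it in ISH1 roots. ISH2 roots had PSAF at 2.54, 2.58 and 2.55 without and 1.18, 1.17 and 0.84 with estradiol, and ISH1&2 roots at 2.55, 2.79 and 2.84 without and 4.3, 4.29 and 4.4 with it. It overlapped between treatments in control and ISH1 roots, with a difference of -0.06 ± 0.09 (adjusted p = 0.566) in ISH1 roots, and responded by -1.5 ± 0.09 (adjusted p = 3.11e-10) in ISH2 and 1.6 ± 0.09 (adjusted p = 2.81e-11) in ISH1&2 roots. PSAG and PSAN followed PSAK in ISH1 roots, at -0.48 ± 0.16 (adjusted p = 0.0137) and -0.72 ± 0.07 (adjusted p = 7.96e-08). On the side that binds LHCII, PSAH1, PSAL and PSAO were not called in ISH1 roots, at -0.13, -0.25 and -0.10, PSAH2 was lower by a difference of -0.41 ± 0.15 (adjusted p = 0.021), and all 4 rose in ISH1&2 roots, by 2.35, 2.58, 2.26 and 2.24 for PSAH1, PSAL, PSAO and PSAH2.

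**Figure D3:**
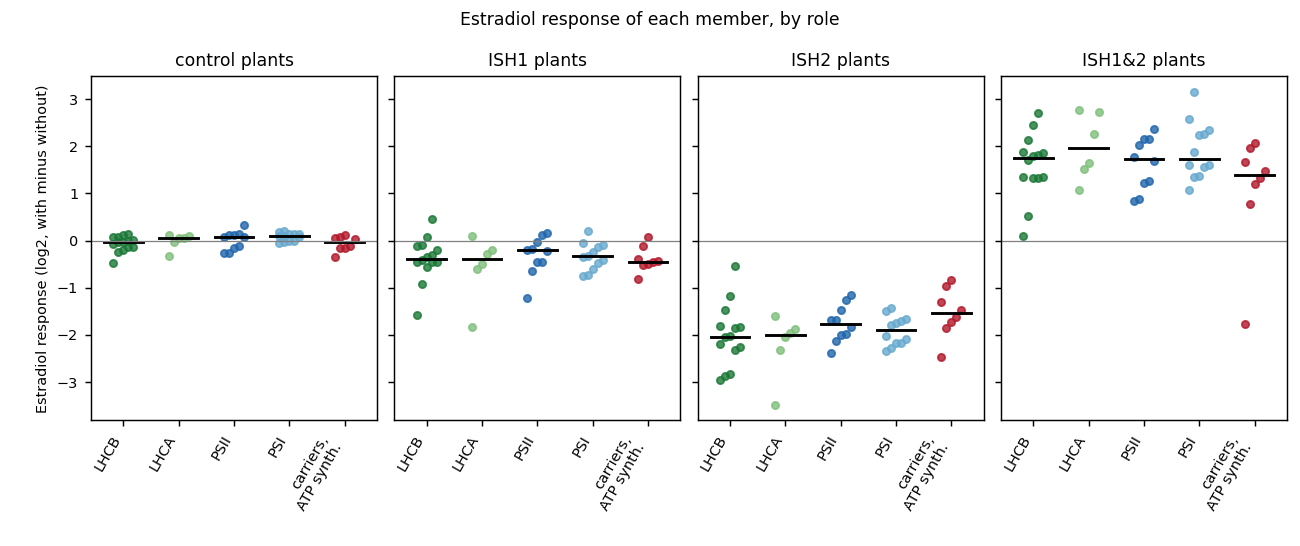
Response to estradiol (log2, with minus without) of each of the 50 genes in the 4 lines, by role, where each point is a gene and each bar the median of its group. Group medians lie near 0 in control roots, between -0.45 and -0.20 in ISH1 roots, between -2.04 and -1.54 in ISH2 roots and between 1.4 and 1.95 in ISH1&2 roots.

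The carriers and ATP synthase subunits comprised PETC, the Rieske iron-sulphur protein of the cytochrome b6f complex, PETE1 and PETE2, the 2 plastocyanins, FD2, the main leaf ferredoxin, FNR1 and FNR2, the leaf reductases that pass its electrons to NADP, and ATPC1 and ATPD, the gamma and delta subunits of the chloroplast ATP synthase. All 8 fell in ISH2 roots (median -1.54), 7 rose and 1 fell in ISH1&2 roots (median 1.4), and 5 fell in ISH1 roots (median -0.45), beside 36.4% of all genes. FNR2 (AT1G20020) rose most. It lay at -0.96, -0.98 and -0.44 without and -1.21, -0.89 and -1.29 with estradiol in control roots and at -0.54, -0.74 and -0.66 without and -0.96, -1.17 and -1.29 with it in ISH1 roots. In ISH2 roots it lay at -0.56, -0.56 and -0.76 without and -2.2, -2.32 and -2.21 with estradiol, and in ISH1&2 roots at -0.76, -0.65 and -0.27 without and 1.46, 1.5 and 1.56 with it. The groups overlapped in control roots and were apart in the other lines, with responses of -0.49 ± 0.14 (adjusted p = 0.00588) in ISH1, -1.62 ± 0.14 (adjusted p = 3.89e-08) in ISH2 and 2.06 ± 0.14 (adjusted p = 4.4e-10) in ISH1&2 roots.

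FD2 (AT1G60950) was the brightest carrier probe. Its levels were 2.82, 2.90 and 2.87 without and 2.70, 2.81 and 2.64 with estradiol in control roots and 3.00, 2.85 and 2.89 without and 2.50, 2.51 and 2.35 with it in ISH1 roots. They were 3.04, 3.06 and 2.97 without and 2.05, 2.2 and 1.95 with estradiol in ISH2 roots and 2.81, 2.92 and 2.96 without and 3.64, 3.71 and 3.65 with it in ISH1&2 roots. Its shifts were small but tight, at -0.46 ± 0.06 (adjusted p = 6.38e-06) in ISH1, -0.96 ± 0.06 (adjusted p = 1.24e-09) in ISH2 and 0.77 ± 0.06 (adjusted p = 6.5e-09) in ISH1&2 roots. In ISH2 roots FD2, ATPD at -0.83 ± 0.06 (adjusted p = 3.87e-09) and LHCB4.3 were the only 3 members whose fall was under 2-fold. In ISH1&2 roots the rises under 2-fold were those of FD2, LHCB4.3, PSBO2 and PSBR. PETC rose by 1.96 ± 0.11 (adjusted p = 2.36e-11) and PETE2 by 1.48 ± 0.09 (adjusted p = 7.92e-11) in ISH1&2 roots.

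PETE1 (AT1G76100), the minor plastocyanin gene, was the 1 member called lower in ISH1&2 roots. It lay at -1.72, -1.82 and -1.14 without and -1.77, -1.48 and -1.92 with estradiol in control roots and at -1.54, -1.66 and -1.53 without and -2.41, -2.21 and -2.57 with it in ISH1 roots. In ISH2 roots it lay at -1.46, -1.37 and -1.64 without and -4.13, -4.38 and -3.37 with estradiol, and in ISH1&2 roots at -1.75, -1.80 and -1.47 without and -6.28, -1.94 and -2.12 with it. The induced ISH1&2 array of replicate 1 lay far below the other 2, which were just under the uninduced arrays, and it was the array that stood apart from its group. The response in ISH1&2 roots was -1.77 ± 0.71 (adjusted p = 0.0363) with all arrays and -0.35 (adjusted p = 0.213) without that one. The call was also lost without any 1 of the 3 uninduced ISH1&2 arrays (adjusted p = 0.0650, 0.0619 and 0.0867). In ISH2 roots the response was -2.47 ± 0.71 (adjusted p = 0.00764), with no overlap between treatments.

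Differences between the responses of lines, which a constant effect of the place on the slide does not enter, followed the same order. Against the control response, the ISH2 response was lower for 48 members and higher for 0 (11.1% and 10.1% of all genes), with a median of -1.93. The 2 not called were LHCB4.3 at -0.40 ± 0.15 (adjusted p = 0.0627) and PETE1 at -2.31 ± 1.00 (adjusted p = 0.12), and limma gave all 50 lower at an unadjusted p below 0.05. The ISH1&2 response was higher than that of control for 48 members and lower for 0 (25.2% and 26.8% of all genes), with a median of 1.69. LHCB2.3 at 0.29 ± 0.44 (adjusted p = 0.608) and PETE1 at -1.61 ± 1.00 (adjusted p = 0.195) were the 2 not called, and neither was lower at an unadjusted p below 0.05. Leaving out the ISH1&2 array with estradiol of replicate 2 gave 1 member lower.

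The ISH1 response was lower than that of control for 23 members and higher for 1 (27.8% and 20.4% of all genes), with a median of -0.35. The member that was higher was LHCB4.3, at 0.58 ± 0.15 (adjusted p = 0.00347), and PSBO2 and PSAK had the smallest adjusted p of those that were lower, at -1.06 ± 0.14 (adjusted p = 5.65e-06) and -0.75 ± 0.10 (adjusted p = 8.79e-06). Without the ISH1 array that stood apart the counts were 22 and 1. Between the inducible lines, the ISH1&2 response was higher than that of ISH1 for 48 members and lower for 0 (23.5% and 22.9% of all genes), with a median of 2.06, and 48 remained the count without the ISH1 array that stood apart. It was higher than that of ISH2 for 49 and lower for 0 (23.3% and 31.4% of all genes), with a median of 3.59, and PETE1, at 0.70 ± 1.00 (adjusted p = 0.584), was the 1 not called. Without the ISH1&2 array that stood apart, PETE1 differed by 2.12 (adjusted p = 2.8e-05) and the count was 50. No member was lower in these 2 differences at an unadjusted p below 0.05. By role, the median difference between the ISH1&2 and ISH2 responses was 3.78 for LHCB, 4.09 for LHCA, 3.35 for photosystem II, 3.73 for photosystem I and 2.88 for the carriers and ATP synthase.

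Within replicate numbers, and so within pairs of slides, the direction held in both lines that carry large shifts. The median response of the members was -1.73, -1.97 and -1.88 in ISH2 roots for replicates 1, 2 and 3, with all 50 below 0 in each. It was 1.83, 1.68 and 1.52 in ISH1&2 roots, with 49, 49 and 48 members above 0. In ISH1 roots it was -0.20, -0.20 and -0.59, with 33, 36 and 49 members below 0, and in control roots 0.00, 0.24 and -0.24. The control medians differed between replicate numbers by more than the size of the ISH1 median over all arrays. Taken as differences from the control on the same slides, the medians were -0.23, -0.50 and -0.36 for ISH1, -1.79, -2.27 and -1.63 for ISH2 and 1.81, 1.35 and 1.79 for ISH1&2 roots.

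The size of the fall in ISH2 roots was only weakly related to the size of the rise in ISH1&2 roots. Across the 50 genes the 2 responses, which share no array, had a Pearson correlation of -0.143 and a Spearman correlation of -0.269, given as a description since genes are not independent replicates. LHCA6 was far out on both, LHCB2.2 and LHCB1.1 fell by differences of -2.95 and -2.87 and rose by 1.79 and 1.72, and PSAD2 rose most with a fall of -1.79. Without PETE1 the correlations were -0.315 and -0.338.

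**Figure D4:**
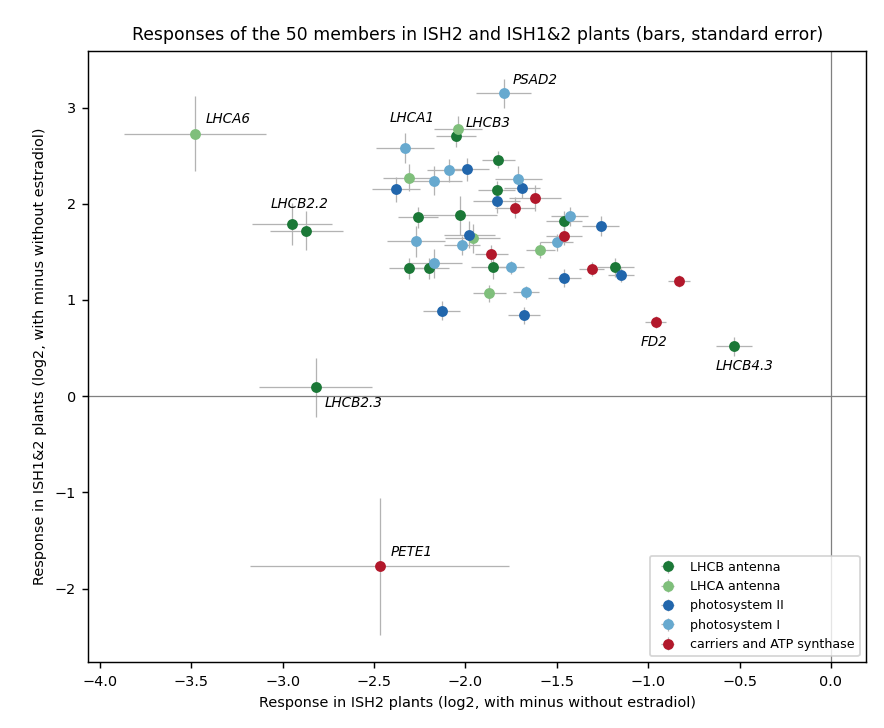
Response to estradiol in ISH2 roots (x axis, log2) against that in ISH1&2 roots (y axis, log2) for the 50 genes, coloured by role, with bars for the standard error. All but 2 genes lie in the upper left, LHCB2.3 lies on the zero line and PETE1 below it.

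The members had 150 probes on the array, 149 of which passed the filter, and the brightest stood for each gene. Of the 149, 146 were lower and 3 not called in ISH2 roots, 143 higher, 2 lower and 4 not called in ISH1&2 roots, 2 higher and 79 lower in ISH1 roots, and 2 higher and 4 lower in control roots. Of the 39 members with more than 1 probe tested, all probes gave the same call for 36 in ISH2 roots, 36 in ISH1&2 roots and 27 in ISH1 roots. The 2 lower probes in ISH1&2 roots were the single PETE1 probe and a further probe of LHCB4.1 at -0.44 (adjusted p = 0.000632), while the LHCB4.1 probe used rose by 1.34. Both LHCB2.3 probes were among those not called. The other 11 members rest on a single probe each, and they are PETE1, LHCB4.3, LHCA5, LHCA6, PSBX, PSAE2, PSAF, PSAK, FNR2, ATPD and PSAH2.

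Other nuclear genes of chloroplast function were read from lists chosen with earlier results of these data known, and are given as counts. Of all genes tested, 26.3% were called higher and 36.4% lower in ISH1 roots, 27.3% and 21.9% in ISH2 roots, and 31.6% and 33% in ISH1&2 roots. Rubisco small subunit genes, which encode part of the enzyme that fixes CO2, moved in the same directions as most members: all 4 fell in ISH2 roots (median -3.17), all 4 rose in ISH1&2 roots (median 2.21) and all 4 fell in ISH1 roots (median -0.64). Without the ISH1 array that stood apart, only 1 of these 4 was called lower in ISH1 roots. RBCS2B had the largest rise, at 2.56 ± 0.26 (adjusted p = 1.03e-07). Of 18 other photosynthesis genes, 17 fell and 1 rose in ISH2 roots (median -0.90), 16 rose and 1 fell in ISH1&2 roots (median 0.95), and 13 fell and 4 rose in ISH1 roots. The largest rises in ISH1&2 roots were those of OHP1, a one-helix protein of photosystem assembly, at 2.32 ± 0.10 (adjusted p = 5.86e-13), and of ELIP2, an early light-induced protein, at 2.06 ± 0.10 (adjusted p = 7.59e-12), followed by PSBTN and PSB27 of photosystem II at 1.74 and 1.34. Of the 3 root-type carriers, the ferredoxin FD3 and the reductase RFNR2 fell in ISH1&2 roots, by differences of -0.88 ± 0.07 (adjusted p = 3.93e-09) and -1.61 ± 0.10 (adjusted p = 7.25e-11), and RFNR1 rose, at 0.36 ± 0.06 (adjusted p = 6.85e-05), where the leaf forms FD2, FNR1 and FNR2 all rose. Falls of root-type carriers were not particular to ISH1&2 roots. Of the same 3, 1 rose and 2 fell in ISH1 roots and 2 fell in ISH2 roots, where none of these leaf forms rose.

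Of 15 chlorophyll synthesis genes, 13 fell and 1 rose in ISH2 roots (median -0.94), 12 rose and 2 fell in ISH1&2 roots (median 1.34), and 10 fell and 3 rose in ISH1 roots. GUN4, which activates magnesium chelatase, changed by -2.46 ± 0.15 (adjusted p = 3.37e-10) in ISH2 and 2.48 ± 0.15 (adjusted p = 6.92e-11) in ISH1&2 roots. CHLH and CHLI2, subunits of that chelatase, rose in ISH1&2 roots by 1.99 ± 0.07 (adjusted p = 8.72e-14) and 1.94 ± 0.08 (adjusted p = 6.24e-13). PORA, a light-dependent reductase of chlorophyll synthesis best known from dark-grown seedlings, was not well above background in uninduced ISH1&2 roots and rose at least 1.23-fold (adjusted p = 0.00161), being well above background on 2 of 3 induced arrays. It also rose in ISH1 roots, from below background to well above it on all 3 induced arrays, by at least 3.16-fold (adjusted p = 0.000848). PORB, a further reductase of that step, and HEMA1, which commits glutamate to the pathway, were the 2 that fell in ISH1&2 roots, at -0.85 ± 0.13 (adjusted p = 1.87e-05) and -0.28 ± 0.05 (adjusted p = 5.59e-05).

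Of 11 regulators of photosynthesis genes, 7 fell in ISH2 roots (median -0.56), 8 rose and 1 fell in ISH1&2 roots (median 1.54), and 6 rose and 4 fell in ISH1 roots. The 4 that fell in ISH1 roots were near the share of all genes called lower there (36.4%). The largest rises in ISH1&2 roots were PIF5 and PIF4, factors that repress chlorophyll and photosynthesis genes in the dark, at 3.83 ± 0.26 (adjusted p = 3.1e-10) and 3.71 ± 0.25 (adjusted p = 3.12e-10). GLK1, an activator of antenna and chlorophyll synthesis genes, lay at -6.73, -6.93 and -6.92 without and -4.08, -3.93 and -3.85 with estradiol in ISH1&2 roots, a rise of 2.90 ± 0.19 (adjusted p = 1.51e-10). It also rose in ISH1 roots, at 1.18 ± 0.19 (adjusted p = 2.3e-05), and in ISH2 roots it was at 0.45 ± 0.19 (adjusted p = 0.0553). GLK2, its close relative, instead fell in ISH1 roots, at -0.40 ± 0.08 (adjusted p = 0.000275), and in ISH2 roots, at -1.07 ± 0.08 (adjusted p = 5.16e-09), and rose in ISH1&2 roots, at 1.54 ± 0.08 (adjusted p = 1.08e-11). GNC, a GATA factor that promotes greening, did likewise at -1.42 ± 0.18 (adjusted p = 2.02e-06), -1.92 ± 0.18 (adjusted p = 1e-07) and 1.47 ± 0.18 (adjusted p = 1.09e-06), and also fell in control roots, at -0.61 ± 0.18 (adjusted p = 0.0298). PIF3 rose in ISH1&2 roots, at 2.29 ± 0.09 (adjusted p = 2.47e-13), and the GATA factor CGA1 fell, at -0.50 ± 0.19 (adjusted p = 0.0275).

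**Figure D5:**
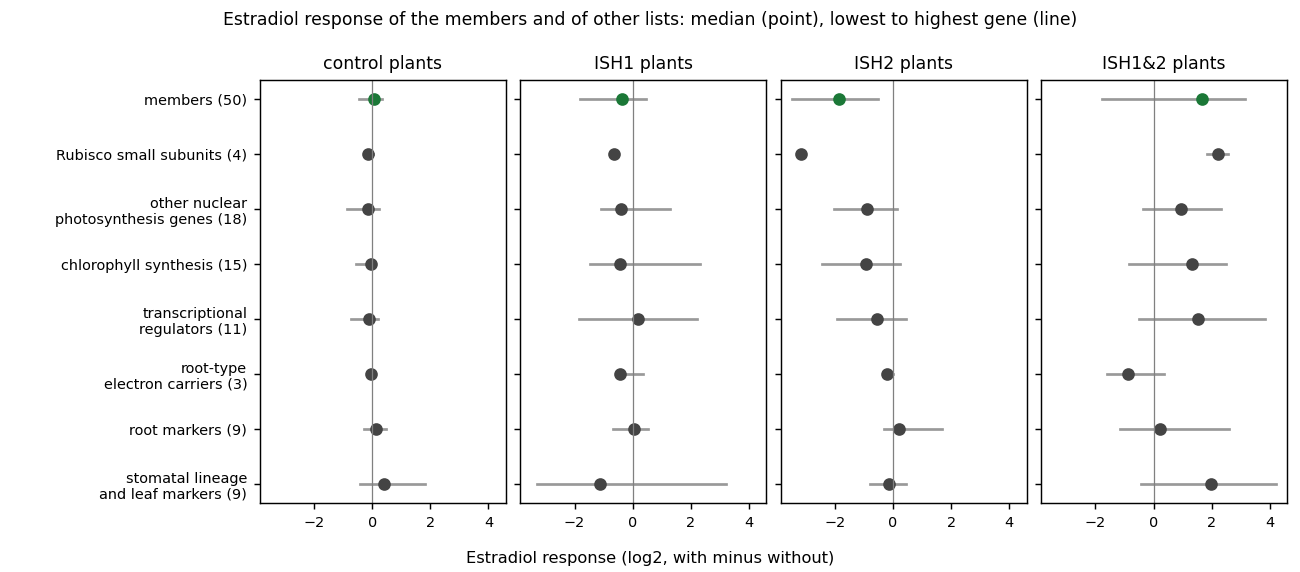
Response to estradiol (log2, with minus without) in the 4 lines for the other lists beside the 50 members, where each point is the median of a list and each line runs from its lowest to its highest gene, with the number of genes in brackets. The lists of photosynthesis, chlorophyll synthesis and Rubisco genes have medians below 0 in ISH2 and above 0 in ISH1&2 roots, as the members do, and the root markers have a median of 0.23 in ISH1&2 roots.

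Markers of cell types were read from the same arrays. All 9 root markers were well above background on all 24 arrays. Their summed signal, of which CASP1 alone made up 33.6% to 64.8%, lay between 17 and 27.2, and in ISH1&2 roots it was 24, 27.2 and 25.1 without and 19.4, 20.2 and 19.5 with estradiol. Without CASP1 the sum ran the other way in ISH1&2 roots, at 9.9, 9.97 and 9.34 without and 12.2, 13 and 12.9 with estradiol. That sum was also higher with estradiol in ISH2 roots, at 9.39, 8.79 and 8.5 without and 10.6, 11.6 and 10.8 with it. In control roots it was 8.69, 8.87 and 8.43 without and 9.48, 9.74 and 10.2 with estradiol. In ISH1 roots the treatments overlapped, at 9.29, 8.38 and 8.28 without and 9.14, 10.1 and 9.45 with estradiol. Of these 9, 6 rose and 1 fell in ISH1&2 roots (31.6% and 33% of all genes), with WOX5 of the quiescent centre at 2.59 ± 0.21 (adjusted p = 4.04e-09) and CASP1 of the endodermis at -1.16 ± 0.11 (adjusted p = 2.96e-08). In control roots 3 of the 9 rose and 0 fell (7.14% and 7.86% of all genes). The counts were 4 and 2 in ISH1 roots (26.3% and 36.4%) and 5 and 1 in ISH2 roots (27.3% and 21.9%). Of 11 markers of the stomatal lineage and of leaves, 9 were tested. Their summed signal was 0.286, 0.306 and 0.325 in ISH1&2 roots with estradiol and 0.0740, 0.0653 and 0.0714 without, and on all other arrays lay between 0.0579 and 0.137 but for 0.216 on the ISH1 array that stood apart. TMM, a receptor of the stomatal lineage, made up 31.3% to 72.5% of it, and without TMM the sum in ISH1&2 roots was 0.0986, 0.0953 and 0.0916 with and 0.0248, 0.0285 and 0.0305 without estradiol. In ISH1&2 roots 6 of the 9 rose (31.6% of all genes), among them MUTE by at least 4.74-fold (adjusted p = 0.000132) and SPCH by at least 2.82-fold (adjusted p = 3.64e-05), both needed for stomata and neither well above background without estradiol, and TMM at 2.32 ± 0.15 (adjusted p = 1.39e-10). MUTE, SPCH, EPF1 and SLAC1 were well above background on all 3 induced and on no uninduced ISH1&2 arrays. The filter kept a probe that was so on every array of 1 group or more. Some of the 9 may thus have been kept only through the group where they were high, and the count of 6 is a description. The 3 of the 9 that were not called in ISH1&2 roots were the leaf polarity factors FIL and YAB3, at 0.61 ± 0.52 (adjusted p = 0.317) and -0.43 ± 0.63 (adjusted p = 0.567), and the guard cell gene GC1, at 0.25 ± 0.74 (adjusted p = 0.788). FIL was not well above background on any of the 6 ISH1&2 arrays. In ISH2 roots, where the members fell, 1 of the 9 rose and 1 fell (27.3% and 21.9% of all genes). In ISH1 roots 1 rose and 4 fell (26.3% and 36.4% of all genes), or 1 and 2 without the ISH1 array that stood apart. The part of these cell types in the shifts of the photosynthesis genes was not tested.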

How the data were processed

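Root RNA of 24 samples was measured on Agilent arrays of 1 colour. Per the file headers, the deposited intensity of each probe was made with Feature Extraction 10.7.3.1 and was corrected for background by that software, with no scaling across arrays. A table of log2 values deposited beside it was scaled by the authors to each array's 75th percentile and centred on each probe's median. Its columns correlated at 0.99992 to 0.999995 per array with values computed here in the same way and served as an alternative. The depth of an array is set by its number of spots and replicates rather than by reads, and with 3 arrays per group a permutation test cannot give a p below 0.1.

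Control spots and 346 spots that the software marked as uneven or as outliers were dropped (238 values of a probe were then missing), and 0 spots were saturated. Replicate spots were averaged, and log2 minus the array's 75th percentile (4577 to 6427 before log2) was taken in R 4.3.3 with data.table (version 1.17.8). Of 43603 probes, 34348 were matched to a locus by accession. The 36570 probes that cleared the background in every array of 1 group or more were kept, and the one with the highest mean stood for its gene, which gave 27813 genes (22278 by locus, 5535 under the array's name). All 11 loci of a list of plastid-encoded genes had no matched probe and were not used here. Where a group was below background, a fold is a bound, against the higher of its value and the lowest signal well above background on each array.

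Groups were compared with limma 3.58.1 on all 24 arrays in 8 groups without a block, two-sided, including differences between lines in the response. On simulated data for the ISH1&2 response, with 200 changed genes of 27813, 87% of those changed 2-fold and 91% of those changed 4-fold were called, with 9 other genes. The simulated noise was independent between arrays, with no effect of the slide, and far fewer genes were changed than were called in the data. These rates therefore check the fit and do not carry over to the data. The alternatives were quantile normalization, normexp with an offset of 50 on the median signal (the files hold no mean signal), adding a pseudocount of 16, the authors' log2 values, other filters, the mean of a gene's probes, the arrays compared alone, a trend with a robust fit, calls of at least 2-fold, the slide or replicate number as a block, and leaving out each array or the 2 control arrays of contradictory description.

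The members and lists were chosen with earlier results of these data known. Members were named by a rule: in each role group, those with the largest and the smallest ISH1&2 response and the highest mean level, and any called against its group. Of each other list, at most 4 genes were named, those called with the largest ISH1&2 response. Members outside this rule were named after their values were seen, as were GLK1 in the other lines, GLK2, GNC, PORB, HEMA1, CGA1, FIL, YAB3 and GC1.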

Additional observations from a re-analysis of the deposited data

Results flagged for a closer look

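The response to estradiol of the same genes differed between lines by a test of the difference itself. With limma and Benjamini-Hochberg adjustment, the ISH2 response was below that of control for 48 members, and the ISH1&2 response was above that of control for 48, above that of ISH1 for 48 and above that of ISH2 for 49. The ISH1 response was below that of control for 23 members and above it for 1, LHCB4.3.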

How the results depend on the processing

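No called difference of a member reversed its direction under any alternative. The median response in control roots, 0.05, ran from -0.06 to 0.12 when single arrays were left out. Counting only changes of at least 2-fold, the ISH1 response had 0 members higher and 3 lower, its difference from control 0 higher and 3 lower, and uninduced ISH1&2 roots 0 higher. With normexp the ISH1 minus control count of lower members was 15, and that of members higher in uninduced ISH1&2 roots was 3, as it was with the mean of all probes of a gene. Only the arrays compared gave 0 lower in the ISH1&2 response (PETE1, adjusted p = 0.238), 2 lower in the control response and 0 higher in uninduced ISH1&2 roots, and leaving out the 2 control arrays of contradictory description gave 1 there. Leaving out each array in turn, members called higher ranged from 0 to 1 in the control response (PSBQ2 at 0.47, adjusted p = 0.0321, without the uninduced control array of replicate 3), from 0 to 1 in uninduced ISH1 and ISH2 roots, from 1 to 9 in uninduced ISH1&2 roots, from 1 to 2 in the ISH1 response (PSBW at 0.29 without the induced array of replicate 3) and from 49 to 50 in the ISH1&2 minus ISH2 difference. Members called lower ranged from 0 to 1 in the ISH1&2 response, from 0 to 1 in the ISH1&2 minus control difference, from 17 to 26 in the ISH1 minus control difference, from 22 to 30 in the ISH1 response and from 48 to 49 in the ISH2 minus control difference. Chosen after seeing the data, normexp left 1 of the 3 members at least 2-fold lower in ISH1 roots, and leaving out the ISH1 array that stood apart gave 2 stomatal and leaf markers lower there in place of 4. Without that array, 1 of the 4 Rubisco small subunit genes was called lower in ISH1 roots. The cause of these changes was not tested. Single members under single settings kept their side of the threshold in 12678 cases, lost the call in 172 and gained one in 38.

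With the replicate block, the counts were the same but for the ISH1 minus control difference, with 21 members lower. Samples of a replicate number correlated in their deviations at -0.04 to 0.10 within lines, so the number does not pair them. With the slide as a block (consensus correlation 0.093), 6 members were higher in uninduced ISH1&2 roots, 49 lower in the ISH2 minus control difference, and other counts were the same. Signal over background limited LHCA6 in induced ISH2 roots and the stomatal markers. The number of arrays limits precision.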

Other observations

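The levels of the transgenes are set here beside those of 1 member, LHCB3. Uninduced ISH1&2 roots held REM7 at 4.52, 4.53 and 4.64, near its level in that line with estradiol, and ATHB25 at -1.18, -0.14 and -0.61. LHCB3 lay at 0.79, 0.93 and 0.97 there against 0.42, 0.18 and 0.54 in uninduced control roots. Induced ISH2 roots held REM7 at 6.37, 6.02 and 6.02 with LHCB3 at -1.23, -1.48 and -1.4. Induced ISH1 roots held ATHB25 at 5.31, 5.16 and 5.23 and differed in REM7 among themselves, with LHCB3 at 0.89, 0.82 and 0.42. Induced ISH1&2 roots held ATHB25 at 4.14, 4.23 and 4.36, with LHCB3 at 3.57, 3.60 and 3.61. LHCB3 does not stand for all members. It was among the 5 called higher in uninduced ISH1&2 roots and was not called in ISH1 roots, where 27 of 50 fell. These are values side by side, and no relation between them was tested.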
